A study of Homo sapiens with 16 samples.

Results

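Differentiated HepaRG cells that received fatty acids and formoterol together were compared with cells that received vehicle. The comparison takes 8 of the 16 libraries of the series, 4 that carry both agents (called the combination from here on) and 4 controls, with every gene of the count table. HepaRG is a human liver progenitor line whose differentiated cultures hold hepatocyte-like cells beside cholangiocyte-like cells, and each library here comes from such a mixed culture. Control cells received 1% BSA as vehicle, and the labels do not say whether the other groups had BSA as well. Combination cells received 30 nM formoterol with 0.25 mM palmitic acid and 0.5 mM oleic acid. Treatment took 3 days in each group, in medium that was changed daily. The other 2 groups, used here for side-by-side values, received the same fatty acids alone or 30 nM formoterol alone. Cells of the 4 groups were differentiated and kept in medium with 2% DMSO, serum, insulin and the synthetic glucocorticoid triamcinolone acetonide. HepaRG is 1 line, so the replicates do not sample different people. The labels call the 4 libraries of a group independent replicates without saying whether they came from separate cultures. The spread behind each edgeR p-value is that between libraries within a group, estimated over all 4 groups and 16 libraries and shared in part across genes. That spread may be technical.

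Formoterol is a long-acting beta-adrenergic agonist, a class of drugs that acts through the stimulatory G protein. Receptor activation raises cAMP, protein kinase A phosphorylates the transcription factor CREB, and CREB binds the cAMP response element. In the liver this pathway is known for raising gluconeogenesis and amino acid breakdown in fasting. Fatty acids are ligands of the PPAR nuclear receptors, which bind response elements as a partner of RXR and raise genes of fatty acid oxidation, ketogenesis and lipid storage. Palmitic and oleic acid are used together in liver cells as a model of fat loading.

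Total counts per library ranged from 33.3 × 1e6 to 34.9 × 1e6 in the controls and from 33.1 × 1e6 to 41.7 × 1e6 in the combination. Levels are given as CPM, counts per 1e6 counts after edgeR's TMM scaling, in the order of replicates 1 to 4, with means ± SD (n = 4). Changes are edgeR log2 fold changes ± SE, and a gene rose or fell where the Benjamini-Hochberg adjusted p of the quasi-likelihood test was under 0.05. CPM is not divided by gene length, so levels are compared between groups and not between genes. In bulk RNA of a mixed culture, fewer cells of a type and less RNA per cell cannot be told apart. Combination replicate 2 stood apart from its group. Of 12927 genes compared within groups, 435 (3.37%) differed more than 2-fold between it and the mean of the other 3 combination libraries, 354 of them lower and 81 higher in replicate 2. The same count was 50, 136 and 69 for the other combination libraries and 42 to 91 for the controls. The main counts of genes are therefore given with and without that library. List counts are given once where leaving it out did not change them. For single genes the values are those with all libraries unless stated.

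Across the transcriptome, 18121 genes were tested and 2583 (14.3%) passed the threshold, 1373 upward (7.58%) and 1210 downward (6.68%). A change of at least 2-fold was present in 339 of the risen and 122 of the fallen genes. Protein-coding genes made up 1315 of the risen and 1077 of the fallen genes. Without combination replicate 2, 2811 of 18517 genes passed (15.2%), 1576 upward (8.51%) and 1235 downward (6.67%). With and without that library, 1179 genes rose and 1043 fell in both fits, 194 risen and 167 fallen genes lost the call, 393 and 190 gained it, and 0 changed direction. The median log2 fold change over all genes was 0.0043 with it and −0.00079 without it. The 4 combination libraries and the 4 controls did not overlap for 16.3% of all genes. Counts of list members given below are to be set against the upward and downward shares of all genes.

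CGA had the largest rise among protein-coding genes whose higher group had at least 2 CPM and whose call held with and without replicate 2. The gene encodes the common alpha subunit of the glycoprotein hormones of pituitary and placenta, and its cAMP response elements are a textbook example of CREB binding. Its level was 1.43, 0.986, 2.16 and 1.68 CPM in the controls and 25.8, 33.7, 26.8 and 27.8 CPM in the combination, so every combination library lay far above every control. The log2 fold change was 4.19 ± 0.20 (edgeR adjusted p = 8.97e-12), and 4.10 without replicate 2. CGA stood at 1.12 ± 0.377 CPM with fatty acids alone and at 35.5 ± 5.65 CPM with formoterol alone, and the combination did not differ from formoterol by the test (log2 difference −0.31 ± 0.16, edgeR adjusted p = 0.192). CGA (ENSG00000135346) lies at chr6:87085498-87095406 of GRCh38.

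The promoter windows of CGA and KIF15 are shown because these are the genes among the 10 largest rises in which the cAMP response element TGACGTCA was found, and FN1 is shown as a gene that fell and holds the same letters. KIF15 encodes a mitotic kinesin and FN1 the matrix and plasma protein fibronectin. The windows run 5′ to 3′ from 250 bases before to 50 bases after the RefSeq start, on GRCh38.p14. Capitals mark each match to TGACGTCA, which reads the same on both strands.
CGA, chr6:87095057-87095356, minus strand: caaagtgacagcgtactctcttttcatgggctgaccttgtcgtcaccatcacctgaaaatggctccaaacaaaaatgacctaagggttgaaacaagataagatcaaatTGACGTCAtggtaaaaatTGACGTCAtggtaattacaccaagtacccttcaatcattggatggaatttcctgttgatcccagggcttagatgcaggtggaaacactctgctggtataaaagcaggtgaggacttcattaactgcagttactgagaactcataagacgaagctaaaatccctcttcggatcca
KIF15, chr3:44761544-44761843, plus strand: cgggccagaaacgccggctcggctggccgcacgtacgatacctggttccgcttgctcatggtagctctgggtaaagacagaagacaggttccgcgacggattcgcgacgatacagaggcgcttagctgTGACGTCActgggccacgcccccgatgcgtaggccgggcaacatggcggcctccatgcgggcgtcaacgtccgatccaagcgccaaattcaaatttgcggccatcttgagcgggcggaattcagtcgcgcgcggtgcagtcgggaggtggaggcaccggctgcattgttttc
FN1, chr2:215436019-215436318, minus strand: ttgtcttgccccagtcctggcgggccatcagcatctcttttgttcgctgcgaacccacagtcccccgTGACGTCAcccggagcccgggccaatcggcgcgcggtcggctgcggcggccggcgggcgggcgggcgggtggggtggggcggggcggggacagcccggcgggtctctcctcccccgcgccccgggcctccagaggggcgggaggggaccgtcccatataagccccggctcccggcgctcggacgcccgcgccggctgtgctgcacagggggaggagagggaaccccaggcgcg
The CGA window holds 2 copies, which start 142 and 124 bases upstream. The KIF15 copy starts 122 bases upstream and the FN1 copy 183 bases upstream. KIF15 had 0.475, 1.51, 1.79 and 1.29 CPM in the controls and 6.16, 8.01, 3.26 and 4.70 CPM in the combination. With fatty acids alone KIF15 stood at 3.95 ± 0.393 CPM, above control by the test (edgeR adjusted p = 0.00179). With formoterol alone it stood at 2.15 ± 0.854 CPM and did not differ from control by the test (edgeR adjusted p = 0.191). FN1 had 5885, 6356, 6920.2 and 6065 CPM in the controls and 5453, 5519, 5589 and 5290.2 CPM in the combination, a log2 fold change of −0.21 ± 0.062 (edgeR adjusted p = 0.0283), and it missed the threshold in 4 of the 8 fits that left out 1 library (adjusted p up to 0.104 without control replicate 3).

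The same letters were counted in the windows of all tested genes with a RefSeq promoter. Of these 12279 genes, 432 (3.52%) held the cAMP response element in at least 1 window. The share was 3.46% of the risen genes (37 of 1070) and 2.93% of the fallen genes (27 of 922). Over all 35116 single windows of the RefSeq table it was 1.85%. Neither share exceeded that of all tested genes. Of 96 named genes with a promoter, 4 held the element, namely CGA, KIF15, FN1 and CREM, and CREM did not pass the test against control. The direct repeat bound by PPAR with RXR, taken strictly as AGGTCA, any 1 base and AGGTCA on either strand, was found in 0 windows of the risen and 0 of the fallen genes and in 5 of the 12279 (0.0407%). A match is a string of letters in a 300-base window, and enhancers or looser matches were not searched.

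Among the other large rises, ANGPTL4, which encodes a secreted inhibitor of lipoprotein lipase and is a well-known PPAR target, had 4.84, 6.44, 4.82 and 6.57 CPM in the controls and 44.2, 63.1, 41.8 and 38.4 CPM in the combination. Its log2 fold change was 3.05 ± 0.14 (edgeR adjusted p = 8.97e-12), and replicate 2 had the highest of the 4 values. INHBE, the liver-made beta E subunit of activin, had 2.67, 2.87, 1.71 and 3.77 CPM in the controls against 23.7, 7.47, 27.6 and 22.0 CPM. Replicate 2 had the lowest combination value of INHBE but still lay above the controls. APOA4, an apolipoprotein of triglyceride-rich particles, had 31.9, 30.4, 29.3 and 34.7 CPM against 164, 57.2, 185 and 171 CPM, with replicate 2 again lowest. The keratins KRT16 and KRT15 rose from 0.544 ± 0.369 to 5.32 ± 1.16 CPM and from 0.661 ± 0.153 to 2.98 ± 1.05 CPM, and both have close family members. GZMB, a serine protease known from cytotoxic lymphocytes, had 0.238, 0.377, 0.196 and 0.168 CPM in the controls and 0.788, 4.56, 1.495 and 1.42 CPM in the combination, with replicate 2 the highest (log2 fold change 3.07 ± 0.64, and 2.32 without that library). ALPP, placental alkaline phosphatase, rose from 0.898 ± 0.321 to 4.11 ± 1.32 CPM, and reads of its near-identical copies cannot be assigned with certainty.

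The largest falls included DGCR6 and PRODH, neighbours on chromosome 22 whose annotated exons overlap. DGCR6 had 32.0, 32.2, 29.6 and 26.8 CPM in the controls and 4.61, 2.83, 4.41 and 4.65 CPM in the combination, a log2 fold change of −2.87 ± 0.16 (edgeR adjusted p = 1.01e-10). PRODH, which starts proline breakdown, had 3.95, 12.9, 26.4 and 38.1 CPM in the controls and 2.25, 3.15, 2.08 and 1.67 CPM in the combination (log2 fold change −3.15 ± 0.70, edgeR adjusted p = 0.00333). The controls of PRODH spread widely, and its lowest control lay close to the combination. Whether reads of the shared exons were counted for 1 gene or the other is not stated in the labels. SLC14A1, a urea transporter, fell from 32.9 ± 5.21 to 7.54 ± 1.93 CPM, and IL21R, the interleukin 21 receptor, from 12.4 ± 2.88 to 2.33 ± 0.925 CPM. TGM3, a transglutaminase of the skin, fell from 2.17 ± 0.941 to 0.288 ± 0.174 CPM, and ACOT11, an acyl-CoA thioesterase whose exons overlap FAM151A, from 2.89 ± 0.209 to 0.472 ± 0.165 CPM. The cytochromes CYP2A6 and CYP2A7, near-identical in sequence, had log2 fold changes of −1.80 ± 0.28 and −1.92 ± 0.36. PFKFB1, the liver form of the enzyme that makes and breaks down fructose 2,6-bisphosphate, had one of −1.77 ± 0.30. SLC1A6, a glutamate transporter, had the weakest support of the 10 (log2 fold change −1.76 ± 0.51, edgeR adjusted p = 0.0235), and its adjusted p was 0.0751, 0.0571 and 0.0557 without combination replicate 4, control replicate 2 and control replicate 4.

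**Figure D1:**
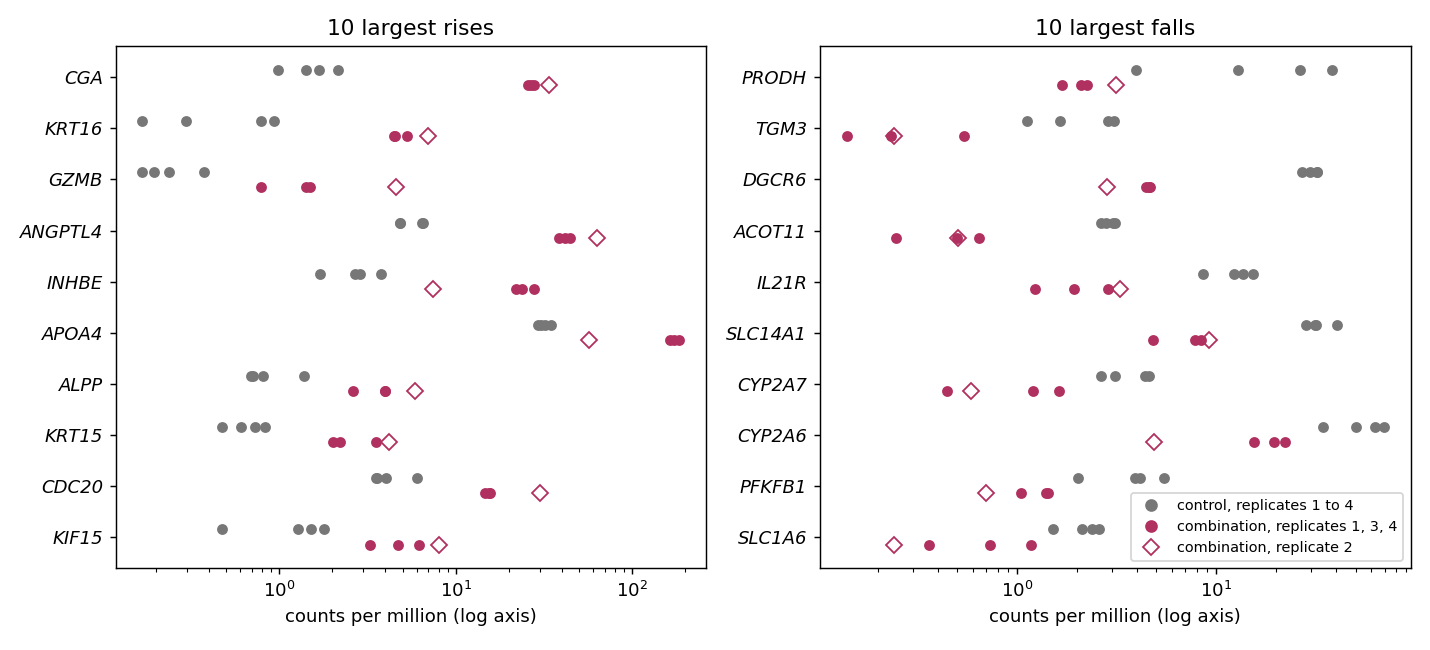
CPM of the 10 largest rises (left) and 10 largest falls (right) in each control library (grey circles), combination replicates 1, 3 and 4 (red circles) and combination replicate 2 (open diamonds), on log axes. The 2 groups do not overlap for any of the 20 genes, and replicate 2 lies apart from the other combination libraries for INHBE, APOA4, CDC20 and CYP2A6.

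Genes of fatty acid use rose more often than they fell. Of 30 measured PPAR-responsive genes, 16 rose and 0 fell (median log2 fold change 0.40, against 0.0043 over all genes). Without combination replicate 2, 21 rose and 0 fell. PDK4, the kinase that shuts pyruvate dehydrogenase and spares glucose, had 731, 728, 794 and 702 CPM in the controls and 2509, 3065, 2502 and 2435 CPM in the combination (log2 fold change 1.83 ± 0.067, edgeR adjusted p = 1.30e-13). Its level was 2480.4 ± 94.6 CPM with fatty acids alone and 776 ± 15.1 CPM with formoterol alone, the first near the combination and the second near the control. TXNIP, an inhibitor of thioredoxin and glucose uptake, had 123, 112, 111 and 106 CPM in the controls and 328, 261, 313 and 319 CPM in the combination. It stood higher with fatty acids alone (500.3 ± 27.6 CPM) and lower with formoterol alone (66.7 ± 2.63 CPM). The combination was below fatty acids alone by the test (log2 difference −0.71 ± 0.069, edgeR adjusted p = 1.28e-06).

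Of 31 measured genes of fatty acid oxidation and ketogenesis, 10 rose and 2 fell, and 17 rose and 2 fell without replicate 2. Of all genes, 7.58% rose and 6.68% fell, so the 2 fallen members are close to the share of all genes. CPT1A, which carries long-chain fatty acids into mitochondria, rose from 134 ± 7.36 to 252 ± 19.2 CPM. ACADVL, the first dehydrogenase of long-chain oxidation, rose from 427 ± 23.6 to 816 ± 77.8 CPM, and ACSL4, which activates long-chain fatty acids, from 666 ± 52.2 to 1041 ± 33.6 CPM. The 2 that fell were ACADL (log2 fold change −0.60), a long-chain dehydrogenase, and ACSL5 (−0.16), another activating enzyme.

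The lists of lipid storage and synthesis held members that rose and members that fell. Of 18 measured genes of lipid droplets and lipolysis, 4 rose and 2 fell. Of all genes, 7.58% rose and 6.68% fell, so the 2 fallen members are close to the share of all genes. PLIN2, the main droplet coat protein of hepatocytes, had 256, 229, 249 and 258 CPM in the controls and 518, 474, 508 and 465 CPM in the combination, and PLIN1 rose from 19.9 ± 2.27 to 41.7 ± 3.55 CPM. G0S2, an inhibitor of triglyceride lipase, rose with a log2 fold change of 1.03. FITM2, which helps droplets form, fell from 226 ± 15.0 to 171 ± 12.7 CPM. In the list of triglyceride synthesis and lipoprotein secretion, 4 of 21 rose and 2 fell, and 10 rose and 2 fell without replicate 2. The 2 that fell, again close to the share of all genes, were synthesis enzymes. GPAM, the mitochondrial acyltransferase that starts glycerolipid synthesis, had 1389.9, 1462, 1337 and 1248 CPM in the controls and 746, 663, 728 and 644 CPM in the combination. LPIN1, a phosphatidate phosphatase, fell from 310.4 ± 6.56 to 181 ± 8.62 CPM. The members that rose were APOA4, APOB, APOA1 and AGPAT2. APOB, the core protein of very low density lipoprotein, had 2860.4, 3850.2, 2929 and 2799.9 CPM in the controls and 5499, 3982, 5701 and 5425 CPM in the combination (log2 fold change 0.73 ± 0.12, edgeR adjusted p = 1.40e-04).

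In fatty acid synthesis and desaturation, 1 of 18 rose and 5 fell, with a list median of −0.015. Without replicate 2 the count was 2 and 5. FASN, fatty acid synthase, fell from 821 ± 68.0 to 563 ± 71.7 CPM, and ACACB, a carboxylase that makes malonyl-CoA at mitochondria, from 246 ± 9.42 to 184 ± 7.28 CPM. The transcription factors SREBF1 and MLXIPL, which drive lipogenesis, had log2 fold changes of −0.53 and −0.47. ELOVL2, an elongase of polyunsaturated fatty acids, rose from 6.54 ± 0.820 to 12.0 ± 1.14 CPM. Of 25 genes of cholesterol synthesis, 1 rose and 1 fell with all libraries, whereas 11 rose and 1 fell without replicate 2.

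Genes known to answer cAMP moved in both directions. Of 26 measured members, 7 rose and 4 fell, and without replicate 2 the count was 9 and 6 of 27. Besides CGA, CITED2, a coactivator partner of CBP and p300, rose from 154 ± 7.62 to 244 ± 12.3 CPM, and RGS2 and PMAIP1 had log2 fold changes of 0.88 and 0.89. PDE4D, a phosphodiesterase that degrades cAMP, had 20.4, 17.4, 13.7 and 13.1 CPM in the controls and 26.9, 27.2, 22.1 and 24.7 CPM in the combination. It stood at 8.15 ± 1.18 CPM with fatty acids alone and at 34.3 ± 1.53 CPM with formoterol alone. The nuclear receptor NR4A3 had the same order, with 2.59 ± 0.545 CPM under fatty acids, 6.19 ± 0.741 CPM in the control, 10.3 ± 1.33 CPM in the combination and 14.0 ± 2.97 CPM under formoterol, and the test did not separate the last 2 (edgeR adjusted p = 0.0574). NR4A1, an immediate early gene of the same family, had 2.94, 4.03, 3.98 and 3.94 CPM in the controls and 5.95, 6.11, 5.42 and 3.51 CPM in the combination and missed the threshold (edgeR adjusted p = 0.0977, and 0.0258 without combination replicate 4). CREM, which encodes an inducible cAMP repressor, had 17.9 ± 2.51 and 19.3 ± 1.16 CPM, a difference that missed the threshold (edgeR adjusted p = 0.596).

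The members that fell included PPARGC1A, the coactivator PGC-1 alpha, with 113, 103, 103 and 98.8 CPM in the controls and 63.8, 73.7, 72.2 and 73.5 CPM in the combination (log2 fold change −0.56 ± 0.069, edgeR adjusted p = 6.01e-06). It stood at 61.5 ± 5.59 CPM with fatty acids alone and 116 ± 3.47 CPM with formoterol alone. Its 4 combination libraries all lay below its 4 controls. TAT, PDE4B and DUSP1 were the other members that fell (log2 fold changes −1.39, −0.79 and −0.24). In the signalling chain itself, 4 of 29 genes rose and 4 fell, and the number that rose was 2 when any of 5 single libraries was left out (combination replicate 1 or 4, control replicate 2, 3 or 4). GNAI3, an inhibitory G protein subunit whose exons overlap AMPD2, rose from 73.6 ± 3.30 to 88.5 ± 4.05 CPM. PKIG, an inhibitor of protein kinase A whose exons overlap ADA, fell from 25.8 ± 2.36 to 17.9 ± 1.06 CPM.

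Glycolysis and glycogen genes fell more often than they rose. Of 23 measured glycolysis genes, 0 rose and 8 fell (median log2 fold change −0.15), and without replicate 2 the count was 4 and 8. SLC2A1, the glucose transporter GLUT1, had 137, 131, 142 and 143 CPM in the controls and 67.0, 76.0, 68.7 and 60.5 CPM in the combination, which is a log2 fold change of −1.02 ± 0.073. HK2, a hexokinase, fell from 15.9 ± 1.15 to 7.28 ± 0.180 CPM, with little spread within each group. PFKFB2, which overlaps YOD1 in its exons, fell from 59.5 ± 2.49 to 38.4 ± 1.31 CPM. In glycogen metabolism 1 of 20 rose and 7 fell. Without combination replicate 2, 6 fell, and 4 fell without combination replicate 4. GYS1, glycogen synthase of muscle and other tissues, fell from 182 ± 13.7 to 123 ± 6.65 CPM, and GBE1, the branching enzyme, from 347 ± 16.2 to 258 ± 14.6 CPM.

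In gluconeogenesis 3 of 15 rose and 6 fell, and 6 rose and 5 fell without replicate 2. PCK1, the cytosolic enzyme that commits to glucose synthesis and a classic cAMP target, had 9.24, 9.46, 6.75 and 9.42 CPM in the controls and 19.99, 10.7, 21.5 and 20.8 CPM in the combination, with replicate 2 lowest but above the controls. G6PC, the last enzyme of the pathway, had 43.2, 57.2, 25.4 and 49.6 CPM in the controls and 64.3, 21.5, 66.7 and 63.8 CPM in the combination. It did not pass with all libraries (log2 fold change 0.30 ± 0.25, edgeR adjusted p = 0.499) and passed without replicate 2 (0.57, edgeR adjusted p = 0.0120). The members that fell were SDS, GOT1, PC, PCK2, MDH1 and MDH2. SDS, which turns serine into pyruvate, had 32.5, 38.5, 30.3 and 36.5 CPM in the controls, 13.0, 8.59, 13.9 and 15.1 CPM in the combination, 3.25, 2.20, 2.75 and 2.81 CPM with fatty acids alone and 80.4, 85.8, 75.5 and 90.0 CPM with formoterol alone. The 4 groups of SDS did not overlap, and the combination lay between fatty acids and control. GOT1, an aspartate aminotransferase, fell from 221 ± 15.2 to 148 ± 13.5 CPM.

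In the urea cycle and amino acid breakdown, 3 of 33 measured genes rose and 11 fell (median log2 fold change −0.26), and 7 rose and 10 fell without replicate 2. AASS, the first enzyme of lysine breakdown, had 399, 423, 349 and 375 CPM in the controls and 180.1, 156, 171 and 163 CPM in the combination. BCAT2, a branched-chain aminotransferase, fell from 61.0 ± 4.67 to 31.0 ± 4.47 CPM, and BCKDHB of the next step had a log2 fold change of −0.55. CBS and CTH, the 2 enzymes of transsulfuration, had log2 fold changes of −1.41 and −0.52. CPS1, the entry enzyme of the urea cycle, went the other way, with 47.9, 51.2, 46.9 and 51.1 CPM in the controls and 77.3, 74.6, 77.9 and 72.1 CPM in the combination (log2 fold change 0.62 ± 0.072, edgeR adjusted p = 3.26e-06). Replicate 2 did not stand apart for CPS1. CPS1 stood at 43.7 ± 4.27 CPM with fatty acids alone and 136 ± 11.0 CPM with formoterol alone, and the combination was above the first and below the second by the test (edgeR adjusted p = 5.95e-07 and 5.80e-08).

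**Figure D2:**
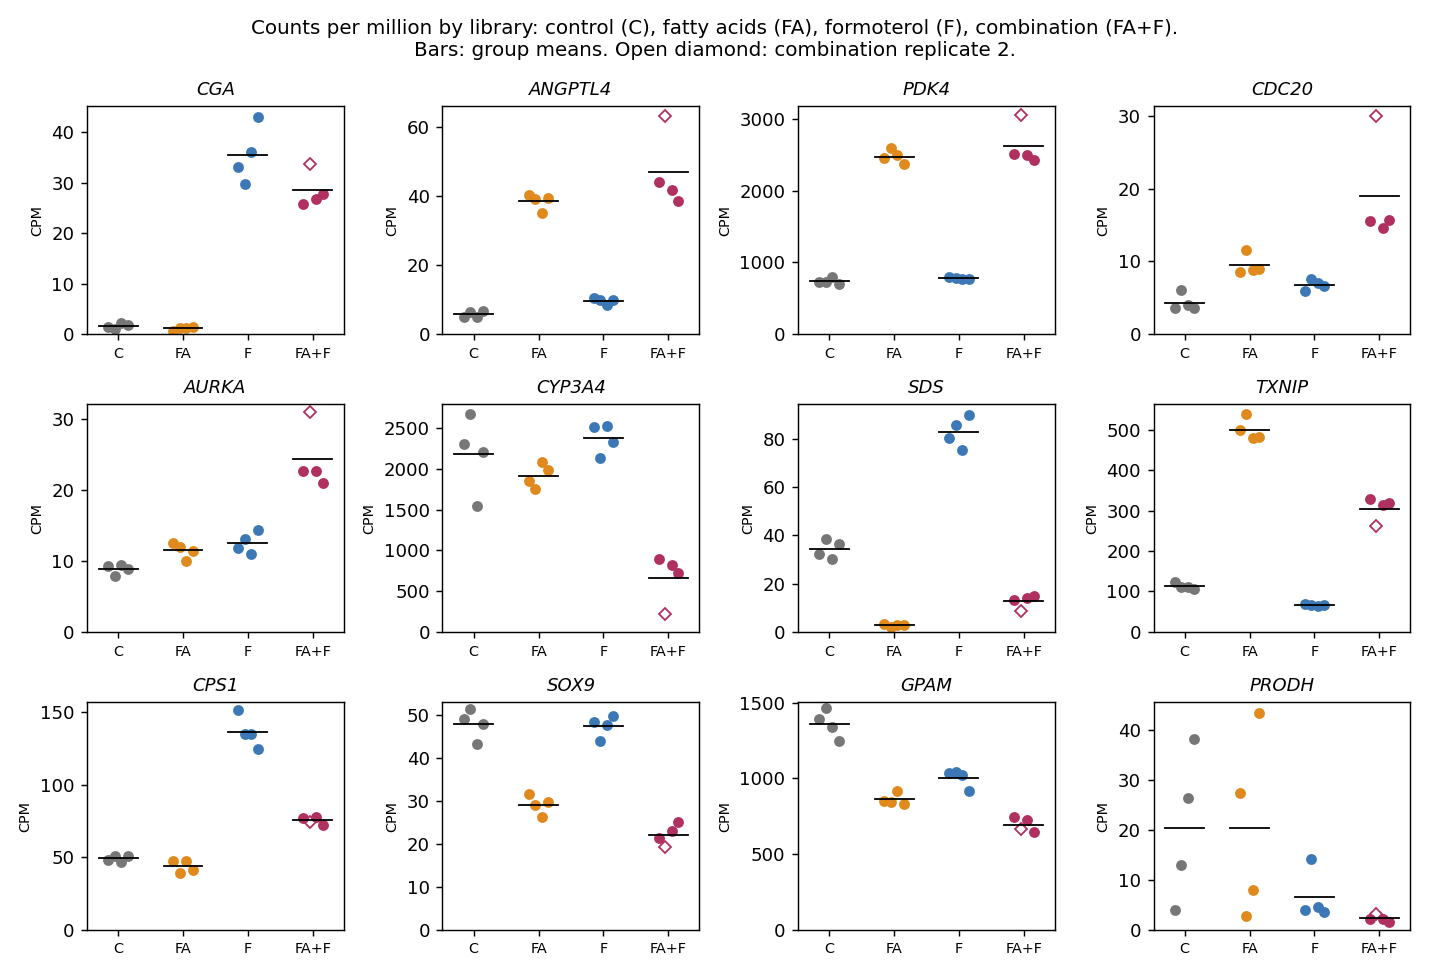
CPM of 12 genes in each library of the control (C), fatty acid (FA), formoterol (F) and combination (FA+F) groups, with group means as bars, replicate 2 of the combination as an open diamond, and axes from 0. CGA is high in both groups with formoterol, PDK4 and ANGPTL4 in both groups with fatty acids, and CYP3A4 is low in the combination.

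Of 23 genes of the unfolded protein response, 8 rose and 0 fell, and 11 rose without replicate 2. PDIA4, a disulfide isomerase of the endoplasmic reticulum, rose from 363 ± 7.79 to 544 ± 66.5 CPM, MANF from 33.6 ± 1.495 to 52.1 ± 8.93 CPM, and the chaperone HSPA5 from 1409.5 ± 22.4 to 1646 ± 84.4 CPM. Of 27 genes of the integrated stress response, 6 rose and 2 fell, and 3 rose without control replicate 1 or without combination replicate 1. INHBE led the list, and PHGDH, the first enzyme of serine synthesis, rose from 20.6 ± 2.08 to 32.1 ± 2.91 CPM. SLC3A2, an amino acid transporter subunit, fell from 203 ± 14.1 to 156 ± 13.7 CPM. Among 23 NRF2 targets 2 rose and 2 fell with all libraries, and 8 rose and 4 fell without replicate 2. With all libraries these counts are close to the shares of all genes, 7.58% upward and 6.68% downward. GCLM, of glutathione synthesis, rose from 179 ± 13.4 to 239 ± 20.8 CPM, and OSGIN1 fell from 27.4 ± 2.64 to 17.2 ± 3.65 CPM.

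Of 22 acute phase genes, 11 rose and 0 fell, with a median log2 fold change of 0.55. Without replicate 2, 18 rose, and 6, 6 and 7 rose without combination replicate 3, combination replicate 4 or control replicate 3. CRP, C-reactive protein, had 29.7, 28.8, 22.0 and 28.0 CPM in the controls and 103, 28.1, 96.7 and 98.1 CPM in the combination. Replicate 2 lay at the control level, and the other 3 were more than 3 times higher. The log2 fold change of CRP was 1.58 ± 0.24 with replicate 2 and 1.87 without it. FGB, a fibrinogen chain, had 7072, 7093, 5486 and 6556 CPM in the controls and 12308, 6765, 13687 and 14251 CPM in the combination, and SERPINA1, alpha-1 antitrypsin, 7507, 7757, 6495 and 7499 CPM against 13882, 6139.5, 16642 and 15598 CPM. For both, replicate 2 lay inside or below the control range. FGA and FGG, the other fibrinogen chains, had log2 fold changes of 0.44 ± 0.13 and 0.45 ± 0.12 (edgeR adjusted p = 0.0203 and 0.0177), which rose to 0.62 and 0.62 without replicate 2 and missed the threshold without combination replicate 3 or 4 or control replicate 3 (adjusted p 0.0609 to 0.08 and 0.0634 to 0.0786, FGA also without combination replicate 1). LCN2, lipocalin 2, which is also a target of NF-kB, rose in every combination library, with 6.83, 4.61, 5.94 and 4.47 CPM against 12.3, 10.0, 14.2 and 16.1 CPM.

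Coagulation and complement genes depended on the same library. With all 8 libraries 4 of 31 rose and 0 fell, without replicate 2 15 rose, and 2 rose without any 1 of the other combination libraries or of control replicates 1 and 3. C8B had 6.74, 4.52, 2.13 and 4.22 CPM in the controls and 14.8, 2.67, 17.8 and 12.1 CPM in the combination, where replicate 2 lay within the control range. SERPINF2, the plasmin inhibitor, had log2 fold change 0.67 ± 0.19 (edgeR adjusted p = 0.0202) and 0.91 without replicate 2, and it missed the threshold in 5 of the other 7 fits without 1 library (adjusted p 0.0504 to 0.0764). Among 19 chemokines and NF-kB targets, 5 rose and 0 fell, and 6 rose and 0 fell without replicate 2. CXCL2, a chemokine that attracts neutrophils, had 12.6, 12.8, 14.3 and 14.8 CPM in the controls and 27.7, 24.0, 30.7 and 37.7 CPM in the combination, and CXCL3 rose from 2.50 ± 0.505 to 5.09 ± 0.560 CPM.

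Glucocorticoid targets fell more often than they rose, in cells that all had triamcinolone in the medium. Of 18 measured members, 7 fell and 4 rose, and 2 rose without control replicate 1. Without combination replicate 2, 8 fell and 4 rose. TSC22D3, the glucocorticoid-induced leucine zipper, had 1753, 1627, 1807 and 1797 CPM in the controls and 975, 1006, 943 and 961 CPM in the combination (log2 fold change −0.85 ± 0.058, edgeR adjusted p = 2.43e-09). KLF9, METTL7A, GADD45B and FKBP5 had log2 fold changes of −0.76, −0.42, −0.52 and −0.21. The members that rose most, ANGPTL4 and PDK4, are PPAR targets as well.

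Genes of drug metabolism moved both ways. Of 33 measured members, 3 rose and 6 fell with all libraries, and 10 rose and 7 fell without replicate 2. Only 1 rose without control replicate 3 or combination replicate 4. Of all genes, 7.58% rose and 6.68% fell (8.51% and 6.67% without replicate 2), so the 3 risen members are close to the share of all genes. CYP3A4, the main drug-oxidising cytochrome of the adult liver (ENSG00000160868, chr7:99756960-99784265), had 2304, 2669, 1542 and 2209 CPM in the controls and 896, 217, 816 and 723 CPM in the combination. Every combination library lay below every control, with replicate 2 lowest (log2 fold change −1.72 ± 0.26, edgeR adjusted p = 6.46e-05, and −1.43 without replicate 2). It stood at 1917 ± 146 CPM with fatty acids alone and 2374 ± 182 CPM with formoterol alone, and the combination was below both (edgeR adjusted p = 0.00112 and 4.48e-05). The interaction, which is the change from fatty acids to the combination less the change from control to formoterol, was −1.65 ± 0.36 on the log2 scale (edgeR adjusted p = 0.0102). Of all genes, 5.5% had an interaction past the threshold (997 genes, and 444 without control replicate 3 or 640 without control replicate 4). CYP2A6 had 50.5, 69.2, 34.3 and 62.4 CPM in the controls and 22.1, 4.88, 19.6 and 15.5 CPM in the combination. CES1, an abundant liver esterase, fell from 6633 ± 437 to 4839 ± 729 CPM, and SULT1A1, a sulfotransferase, from 111 ± 3.63 to 76.0 ± 7.09 CPM. CYP2E1, CYP3A5 and CES2 rose, with log2 fold changes of 0.89, 0.40 and 0.43.

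In bile acid synthesis and transport, 1 of 19 genes rose and 2 fell, against 7.58% and 6.68% of all genes, and 6 of 20 rose and 2 fell without replicate 2. CYP27A1, of the alternative pathway of bile acid synthesis, fell from 95.2 ± 5.31 to 76.1 ± 9.40 CPM. SLC10A1, the bile acid importer NTCP, had 12.1, 13.7, 10.0 and 12.0 CPM in the controls and 4.38, 3.07, 9.83 and 7.82 CPM in the combination. CYP7A1, the rate-limiting enzyme of the classic pathway, had 6.80, 13.5, 4.04 and 8.38 CPM in the controls and 7.44, 2.19, 9.63 and 10.0 CPM in the combination and did not pass (log2 fold change −0.16 ± 0.32, edgeR adjusted p = 0.824). NR1H4, the bile acid receptor FXR, had a log2 fold change of 0.45 ± 0.15 (edgeR adjusted p = 0.0472), which was 0.63 without replicate 2 and missed the threshold in 6 of the other 7 fits without 1 library (adjusted p 0.0518 to 0.187).

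The respiratory chain genes that passed the test all fell, by small steps. Of 13 genes of the mitochondrial chromosome, 7 fell and 0 rose with and without replicate 2, and their median log2 fold change was −0.38 with it and −0.25 without it. MT-ND5, a subunit of complex I, had 5084, 4851, 5369 and 5239 CPM in the controls and 3922, 2934, 3967 and 4381 CPM in the combination, and MT-ND4, whose frame overlaps MT-ND4L, fell from 7582 ± 543 to 5577 ± 776 CPM. The mitochondrial chromosome held 6.91% ± 0.473 (SD, n = 4) of all counts in the controls and 5.80% ± 0.494 (SD, n = 4) in the combination. The 2 ranges, 6.49% to 7.58% and 5.24% to 6.44%, did not overlap (exact permutation test, two-sided, p = 0.0286, the smallest that 4 against 4 can give). Without replicate 2 the difference was −0.930 percentage points (exact permutation p = 0.0571). Of 54 nuclear-encoded subunits, 9 fell and 0 rose, and 8 fell without replicate 2. CYCS, cytochrome c, had 679.7, 681, 597 and 659 CPM in the controls and 455, 447, 500.1 and 494 CPM in the combination, and ATP5F1B and ATP5F1A, the core subunits of ATP synthase, had log2 fold changes of −0.30 ± 0.057 and −0.28 ± 0.058. Of 24 genes of mitochondrial biogenesis and dynamics, 6 fell and 0 rose. Besides PPARGC1A these included its partners ESRRA and ESRRG, which fell from 70.4 ± 5.82 to 53.2 ± 6.37 and from 18.9 ± 2.90 to 12.5 ± 1.81 CPM, and ESRRA overlaps TRMT112 in its exons.

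Proliferation genes were the list with the highest share of calls. Of 27 measured members, 25 rose and 0 fell, with a median log2 fold change of 1.45. The same number rose without replicate 2, at a median of 1.18. The 2 members that did not pass were UBE2C and CCNB2, which had 32 counts or fewer in each of the 8 libraries. Their counts are far below those of TOP2A and may not reflect their level, because how reads shared between genes were counted is not stated. TOP2A, the topoisomerase that separates sister chromatids, had 45.7, 49.1, 59.5 and 48.2 CPM in the controls and 158, 257, 158 and 143 CPM in the combination. RRM2, which limits the supply of deoxynucleotides, had 32.0, 39.8, 39.4 and 34.1 CPM against 97.2, 158, 115 and 112 CPM. AURKA, a kinase of the mitotic spindle, had 9.33, 7.83, 9.39 and 8.86 CPM against 22.7, 31.0, 22.6 and 21.1 CPM, and CDC20, which activates the anaphase-promoting complex, 3.59, 6.03, 4.01 and 3.55 CPM against 15.5, 30.0, 14.6 and 15.7 CPM. For each of the 4 genes the combination libraries all lay above the controls, and replicate 2 was the highest. The mean over the list, as log2 difference from the control mean, was 0.998 to 1.07 in combination replicates 1, 3 and 4 and 1.497 in replicate 2. Against fatty acids alone 17 of the 27 members were higher in the combination (1.68% of all genes were), and 10 without replicate 2 (1.78%). Against formoterol alone 25 were higher (9.48% of all genes were), and 24 without replicate 2 (7.17%).

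**Figure D3:**
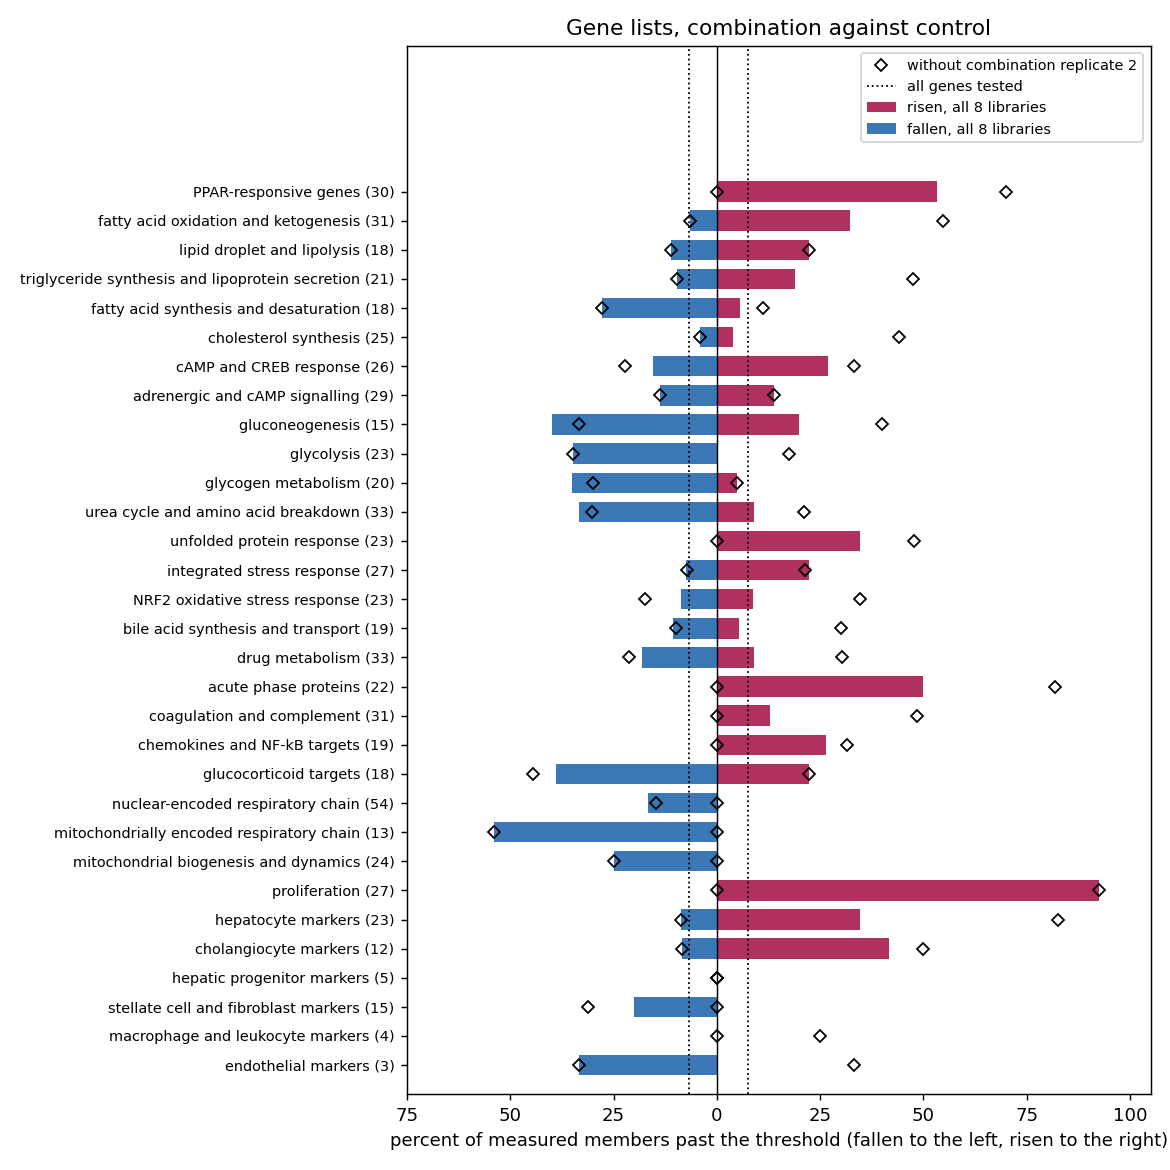
Percent of the measured members of each of 31 gene lists that rose (red, to the right) or fell (blue, to the left) in the combination with all 8 libraries, and without combination replicate 2 (open diamonds). The number of members is in brackets, and dotted lines mark the share of all genes tested, 7.58% upward and 6.68% downward. Proliferation genes reach the highest share upward, and the diamonds lie far to the right of the bars for hepatocyte markers, acute phase, coagulation and cholesterol genes.

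Cell type markers were read to see what the mixture held. Of 23 hepatocyte markers, 8 rose and 2 fell with all libraries, and 19 rose and 2 fell without replicate 2. Only 5 rose without combination replicate 1, combination replicate 3 or control replicate 3. The 2 that fell with all libraries were TAT (log2 fold change −1.39) and SLC10A1, both named above. Of all genes 6.68% fell, so these 2 are close to the share of all genes. ALB, albumin, had 17449, 19891, 11609 and 17068 CPM in the controls and 24588, 9823, 26671 and 25759 CPM in the combination. It did not pass with all libraries (log2 fold change 0.40 ± 0.20, edgeR adjusted p = 0.210) and passed without replicate 2 (0.64, edgeR adjusted p = 1.62e-05). HNF4A, the master transcription factor of hepatocytes, had 97.5, 98.4, 89.3 and 95.9 CPM against 131, 74.96, 146 and 141 CPM, with log2 fold change 0.37 ± 0.13 (edgeR adjusted p = 0.0627) and 0.55 without replicate 2 (edgeR adjusted p = 1.22e-06). The summed level of the list was 35773 to 49144 CPM in the controls, 71594 to 79876 CPM in combination replicates 1, 3 and 4, and 32448 CPM in replicate 2. The same library was lowest for drug metabolism and highest for proliferation, and the part of this in the results above was not tested beyond leaving the library out.

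Of 12 measured cholangiocyte markers out of 16, 5 rose and 1 fell, and 6 rose and 1 fell without replicate 2. KRT19, a keratin of bile ducts, had 55.1, 51.6, 64.8 and 63.4 CPM in the controls and 125, 140.3, 121 and 117 CPM in the combination, and CD24 rose from 50.7 ± 2.40 to 143 ± 38.5 CPM. SOX9, a transcription factor of duct and progenitor cells, went the other way with 49.1, 51.3, 43.3 and 47.8 CPM in the controls and 21.3, 19.2, 23.0 and 24.99 CPM in the combination (log2 fold change −1.12 ± 0.085, edgeR adjusted p = 7.23e-09). The summed level was 308 to 348 CPM in the controls and 457 to 534 CPM in the combination, and EPCAM was listed at 0 counts in the 8 libraries. Since the counting method is not stated, a marker listed at 0 counts is not thereby shown to be absent from the cells. Of 5 measured hepatic progenitor markers out of 9, 0 rose and 0 fell, at 932 to 1259.6 CPM in sum in the controls and 898 to 954 CPM in the combination. Of 15 measured stellate cell and fibroblast markers out of 18, 3 fell and 0 rose, and 5 of 16 fell and 0 rose without replicate 2. SPARC, a matrix protein, had 123, 113, 124 and 130.4 CPM in the controls and 82.6, 84.2, 83.7 and 80.7 CPM in the combination, and COL1A2, a defining collagen of these cells, was listed at 0 counts in the 8 libraries. Their summed level, mostly FN1, was 6830 to 7994 CPM in the controls and 6135 to 6555 CPM in the combination. Macrophage and leukocyte markers summed to 24.2 to 28.9 CPM in the controls and 15.1 to 30.0 CPM in the combination over 4 measured of 11, and CD3E and TYROBP had 0 counts. Endothelial markers had 3 measured of 11, with VWF, CDH5 and CLEC4G at 0 counts. Their sum of 119.8 to 137 CPM in the controls and 55.2 to 111 CPM in the combination was mostly KDR, a VEGF receptor, which had 116, 116, 130.4 and 115 CPM in the controls and 69.5, 104.8, 58.1 and 48.3 CPM in the combination.

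**Figure D4:**
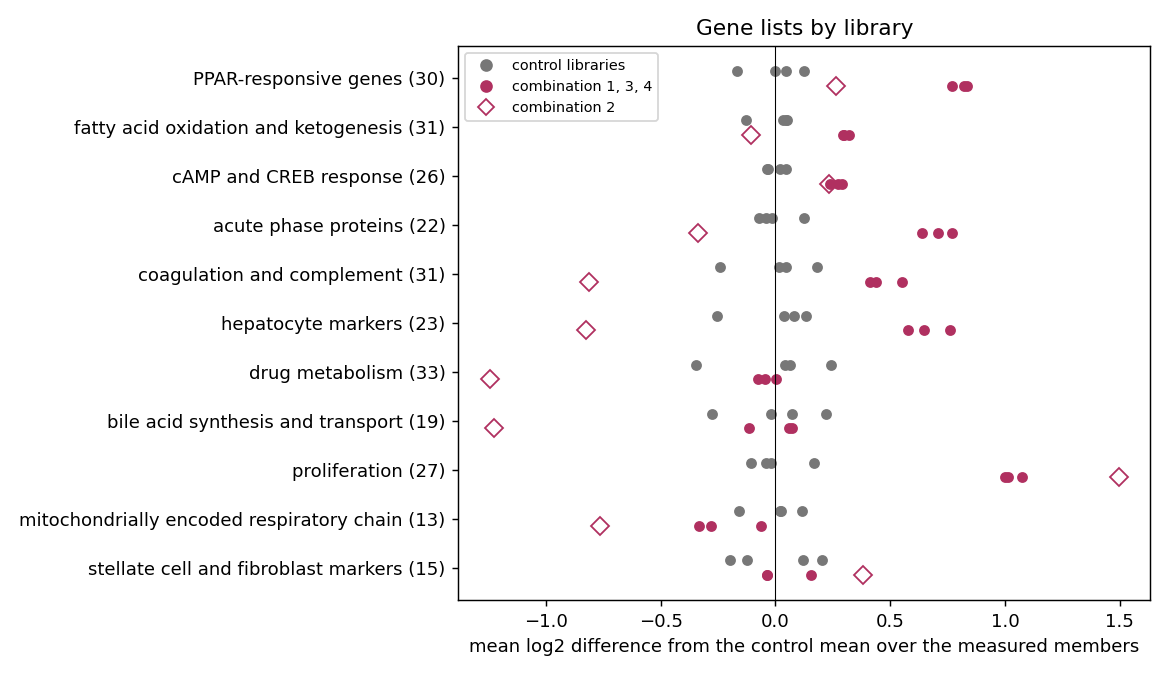
Mean log2 difference from the control mean over the measured members of 11 gene lists (number in brackets) in each control library (grey), combination replicates 1, 3 and 4 (red) and combination replicate 2 (open diamonds). Replicate 2 lies below every control for hepatocyte markers and for acute phase, coagulation, drug metabolism, bile acid and mitochondrially encoded genes. It lies above every plotted library for proliferation and for stellate cell and fibroblast markers, but lies with its group for cAMP genes.

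Against the single agents, the combination differed from fatty acids alone in 507 genes (2.8% of 18121) and from formoterol alone in 3342 (18.4%). With replicate 2 left out, it differed from fatty acids in 590 and from formoterol in 2700 of 18517 genes. These comparisons share the combination libraries with each other and with the comparison against control. Of all genes, 99 (0.546%) were higher in the combination than in control, fatty acids and formoterol at once, and 34 (0.188%) were lower than in each. Without replicate 2 the counts were 74 (0.4%) and 41 (0.221%) of 18517, and 56 and 29 genes were in both fits. The count of lower genes was 18 without combination replicate 4. With replicate 2 included, the 5 with the largest rises against control were CDC20, TK1, CKAP2L, KIF2C and CENPF, each of which acts in DNA synthesis or mitosis. CENPF, a kinetochore protein, had means of 15.5 ± 1.51 CPM in control, 30.8 ± 4.09 with fatty acids, 20.2 ± 3.36 with formoterol and 56.6 ± 20.2 in the combination. The order was the same for TK1, thymidine kinase, with 4.10 ± 1.27, 9.63 ± 2.53, 5.82 ± 0.586 and 16.5 ± 3.83 CPM in those groups. Both had fatty acids above formoterol in mean level. Replicate 2 raised the combination mean of CENPF, with 86.8 CPM against 43.8 to 49.5 CPM in the other combination libraries. CXCL2 and ACSL4 were also higher than in each of the other groups.

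The 5 with the largest falls were DGCR6, SLC14A1, CYP2A6, CYP3A4 and ASB4. ASB4, a substrate adaptor of a ubiquitin ligase, had 18.6, 17.2, 13.4 and 16.9 CPM in the controls and 5.14, 5.66, 6.47 and 5.12 CPM in the combination, against means of 8.09 ± 0.850 CPM with fatty acids and 13.8 ± 1.32 CPM with formoterol. DGCR6 stood at 8.21 ± 1.90 CPM with fatty acids and 13.8 ± 1.10 CPM with formoterol, both between control and combination. CYP2A6 stood at 47.7 ± 9.70 and 50.0 ± 5.85 CPM, both near the control. SOX9 and GPAM, described above, were also lower than in each of the other groups. The combination of GPAM differed from fatty acids by −0.31 ± 0.064 and from formoterol by −0.53 ± 0.064 on the log2 scale (edgeR adjusted p = 0.00804 and 7.88e-06).

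The risen genes with the largest share of all counts, which depends on gene length as well as level, were FGA, FGG, SERPINA1, FGB and APOB, and the fallen ones were GPX3, MT-ND4, CES1, FN1 and CPD. GPX3, a secreted glutathione peroxidase, had 7906, 6549, 8555 and 8262 CPM in the controls and 5101, 5482, 5217 and 5430.1 CPM in the combination. CPD, a carboxypeptidase of the Golgi, had 5481, 5778, 5446 and 5047 CPM in the controls and 3851, 4909, 3850.1 and 3627 CPM in the combination. Both had non-overlapping groups, and replicate 2 of CPD was the highest of its group. The genes that set replicate 2 most apart from the other 3 combination libraries, given as a description, were low in AHSG, ADH1A, C9, OTC and ARG1 and high in GZMB, NUSAP1, GPR89B, NXF3 and CAMK4. The low ones are liver enzymes and plasma proteins. C9, a complement component, had 10.9, 1.41, 12.5 and 12.4 CPM in the 4 combination libraries, and AHSG, the plasma protein fetuin-A, 5.55, 0.507, 7.40 and 5.18 CPM.

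**Figure D5:**
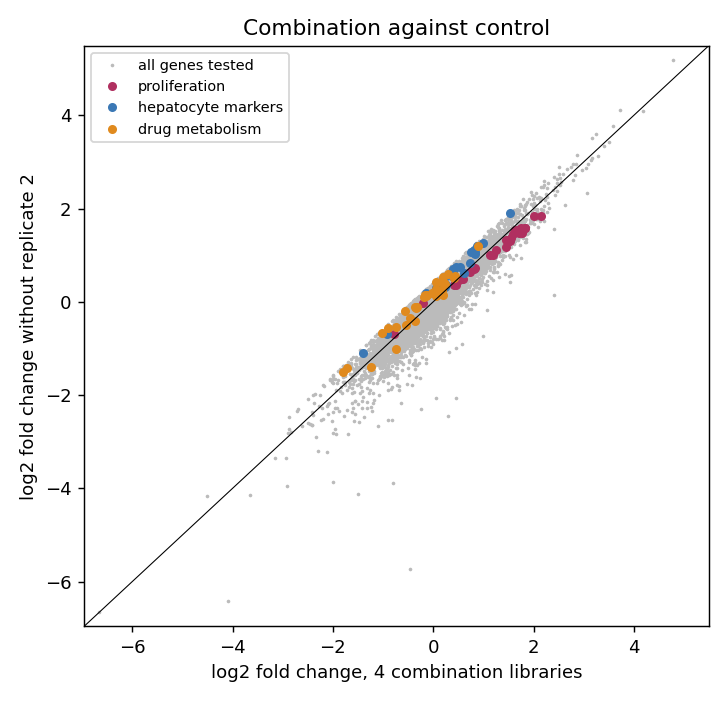
The log2 fold change of each gene with all 4 combination libraries (horizontal) and without replicate 2 (vertical), for all genes tested (grey) and the members of 3 lists (colours), with a line of equality. Most proliferation genes lie below the line and most hepatocyte markers above it, and the proliferation members that rose stay above 0 in both.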

How the data were processed

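The deposited table holds raw gene counts of poly-A RNA for 16 libraries, 4 per group. Per the submitters' processing notes, HISAT2 2.0.5 and DESeq2 were used and the build is given as mm39, a mouse build; all 58735 gene IDs are human and have the coordinates of GENCODE 29 (GRCh38), so the counts were read as human. For the counting program, its annotation and its use of strand, the sources used here give nothing.

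Genes were kept by edgeR's filterByExpr, which left 18121 genes. Counts were scaled by TMM and fitted with edgeR 4.0.16 (R 4.3.3) quasi-likelihood tests over 4 group means and 16 libraries, with Benjamini-Hochberg adjustment at 0.05. Log2 CPM in list means used a prior count of 2. The fit was tested on simulated data. The members, lists and alternatives were chosen with earlier results of these data known.

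Named genes are the 10 largest rises and falls among protein-coding genes whose higher group had at least 2 CPM, called with and without combination replicate 2 and without overlap between groups, the 3 or fewer members of each list with the lowest p, 5 per direction for genes beyond both single agents, for abundance and for replicate 2, and genes chosen for their role in these pathways, 122 in all, a few of which are not reported here. The 31 lists hold 703 distinct genes, 644 of them measured. Of the 122 genes, 14 share exon bases with a gene that has over 10% of their counts. Promoters are RefSeq windows on GRCh38.p14, matched by symbol for 12279 tested genes, over all windows of a gene. Alternatives were each library left out in turn, DESeq2 1.42.0, DESeq2 size factors, total counts, no filter, at least 1 CPM in 4 libraries, a replicate block, only the 2 groups, protein-coding genes only and at least 2-fold. A fit with both the block and the omission of combination replicate 2 was chosen after seeing the data. Python 3.11.15 with pandas 2.3.3, numpy 2.4.6 and matplotlib 3.10.9 made the tables and plots. Sequencing reads were not used here.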

Additional observations from a re-analysis of the deposited data

Results flagged for a closer look

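In each group of 4, a library was picked out where the gap between the highest or lowest value and its nearest neighbour took more than 82.9% of the range. Over 155 values per group, 33 were picked out in the combination and 8 in the control. The values were the 122 named genes, the means of 31 lists, the mitochondrial share and the total counts. For independent values, chance alone picks out about 1 group in 20. These values are not independent, and 5 named genes per direction were chosen because replicate 2 stood apart. The counts are therefore a description and not a test. Of the 33, 31 concerned combination replicate 2, 19 of them genes and 12 of them lists.

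List means are given as log2 difference from the control mean and set against the range of the other 3 combination libraries. Lowest in replicate 2 were PPAR-responsive genes at 0.26 against 0.77 to 0.83, fatty acid oxidation and ketogenesis at −0.11 against 0.29 to 0.32, triglyceride synthesis and lipoprotein secretion at −0.40 against 0.33 to 0.43 and cholesterol synthesis at −0.29 against 0.14 to 0.19. Also lowest were gluconeogenesis at −0.47 against 0.13 to 0.24, NRF2 oxidative stress response at −0.18 against 0.10 to 0.16, bile acid synthesis and transport at −1.23 against −0.12 to 0.074 and drug metabolism at −1.24 against −0.075 to 0.00069. The lists of liver proteins followed with acute phase proteins at −0.34 against 0.64 to 0.77, coagulation and complement at −0.81 against 0.41 to 0.55 and hepatocyte markers at −0.83 against 0.58 to 0.76. The list that was highest was proliferation at 1.497 against 0.998 to 1.073.

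Genes lowest in replicate 2 included APOA4 at 57.2 CPM against 164 to 185, DGCR6 at 2.83 CPM against 4.41 to 4.65, PCK1 at 10.7 CPM against 19.99 to 21.5 and CRP at 28.1 CPM against 96.7 to 103. Further low genes were ESRRA at 43.8 CPM against 55.1 to 57.1, APOB at 3982 CPM against 5425 to 5701, G6PC at 21.5 CPM against 63.8 to 66.7 and ALB at 9823 CPM against 24588 to 26671. Low by the same measure were C9 at 1.41 CPM against 10.9 to 12.5. Genes highest in replicate 2 included CDC20 at 30.0 CPM against 14.6 to 15.7, PDK4 at 3065 CPM against 2435 to 2509, TOP2A at 257 CPM against 143 to 158 and AURKA at 31.0 CPM against 21.1 to 22.7. Also highest there were KIF2C at 17.9 CPM against 10.2 to 10.9, CENPF at 86.8 CPM against 43.8 to 49.5, NUSAP1 at 7.13 CPM against 1.92 to 2.74 and NXF3 at 6.67 CPM against 1.95 to 2.60.

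In combination replicate 1, ACACB was highest at 195 CPM against 180.1 to 180.3 and PPARGC1A was lowest at 63.8 CPM against 72.2 to 73.7. Among the controls, the highest values picked out were ALPP in replicate 3 at 1.37 CPM against 0.696 to 0.810, APOB in replicate 2 at 3850.2 CPM against 2799.9 to 2929 and KDR in replicate 3 at 130.4 CPM against 115 to 116. Among the controls, the lowest values picked out were PCK1 in replicate 3 at 6.75 CPM against 9.24 to 9.46, NR4A1 in replicate 1 at 2.94 CPM against 3.94 to 4.03 and CES1 in replicate 3 at 5981 CPM against 6801 to 6899. Control replicate 3 was also set apart in 2 list means, fatty acid oxidation and ketogenesis (−0.13 against 0.033 to 0.049) and mitochondrial biogenesis and dynamics (0.046 against −0.021 to −0.011).

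The change that formoterol brought differed with and without fatty acids for 24 of the 122 named genes (edgeR interaction, adjusted p under 0.05). The same 24 passed without combination replicate 2. Of all genes, 997 (5.5%) passed this test, and 444 passed without control replicate 3. Some of the 122 were named for their values in the combination, so their share cannot be compared with that of all genes. Values are the log2 change from fatty acids to the combination less the log2 change from control to formoterol, with SE. The difference was positive for IL21R (1.79 ± 0.35), SDS (0.93 ± 0.20) and GPX3 (0.73 ± 0.096), with edgeR adjusted p = 0.00627, 0.00873 and 3.80e-04. It was also positive for PLIN1 (0.66 ± 0.14), PLIN2 (0.51 ± 0.079) and SLC2A1 (0.41 ± 0.10), with edgeR adjusted p = 0.00857, 0.00112 and 0.0240. The smallest positive values belonged to ACACB (0.38 ± 0.092), TSC22D3 (0.38 ± 0.082) and GYS1 (0.37 ± 0.09), with edgeR adjusted p = 0.0201, 0.0109 and 0.0206. Negative values included CYP7A1 (−2.63 ± 0.45), AHSG (−2.15 ± 0.59) and OTC (−1.98 ± 0.48), with edgeR adjusted p = 0.00230, 0.0362 and 0.0208. Others were G6PC (−1.78 ± 0.35), CYP3A4 (−1.65 ± 0.36) and CYP2A6 (−1.51 ± 0.39), with edgeR adjusted p = 0.00590, 0.0102 and 0.0263. Negative as well were ALB (−1.39 ± 0.28), NR1H4 (−0.87 ± 0.21) and FGB (−0.77 ± 0.20), with edgeR adjusted p = 0.00677, 0.0189 and 0.0278. Smaller in size were HNF4A (−0.76 ± 0.18), CPS1 (−0.68 ± 0.10) and CITED2 (−0.41 ± 0.077), with edgeR adjusted p = 0.0206, 8.48e-04 and 0.00478. Also negative was GNAI3 (−0.34 ± 0.082), with edgeR adjusted p = 0.0186.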

How the results depend on the processing

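The number of genes that differed from control stayed within 1.5 times of 2583 under each alternative but the fold limit, which left 461 (339 risen, 122 fallen). Leaving out 1 library gave 1975 to 2811 called genes, 1048 to 1576 risen and 927 to 1235 fallen. With only the 2 groups compared, 1897 genes were called (996 risen, 901 fallen), fewer than in any fit without 1 library. That fit also ended the calls of 11 named genes. The counts above and below control, fatty acids and formoterol at once were 168 and 56 with no filter and 154 and 54 with DESeq2. With total counts only the lower count was 22. Without 1 library these counts ranged from 74 to 102 and from 18 to 41. The count against fatty acids was 880 with no filter and 795 with DESeq2, and the interaction count was 1523 with no filter and ranged from 444 to 1325 without 1 library. The cause of these shifts was not tested. The mitochondrial share differed by −1.33 to −0.892 percentage points without 1 library, with p = 0.0571 by the exact permutation test without combination replicate 2 or without any 1 of the controls.

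The labels do not say that a replicate number marks a shared culture, batch or day, so the numbers were not taken as pairs. Same-numbered libraries of the 2 groups had correlations of −0.0162, −0.0329, −0.113 and 0.0329 between their deviations from the group means. With the replicate number as a block 1350 genes rose and 1233 fell (1520 and 1162 with combination replicate 2 left out as well). Among named genes the block ended 1 call, that of NR1H4 (adjusted p = 0.0511).

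Of 109 named genes that passed, 97 kept their call under each alternative tried on them, 12 lost it under at least 1 and 0 reversed. Many of these genes were chosen for strong calls in these data, some for calls with and without combination replicate 2. The counts therefore describe the chosen genes and do not test how stable calls are in general. Reversals concerned genes that did not pass. CYP7A1 had log2 fold changes of −0.39 to 0.19 without 1 library and 0.22 under the block without combination replicate 2, and ARG1 had −0.52 to 0.091 and 0.11. NXF3 had −0.21 to 0.53 and −0.14. ADH1A had −0.18 to 0.43 without 1 library and −0.0066 under the replicate block, and OTC had −0.056 to 0.50 without 1 library.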
